A study of Mus musculus with 26 samples.

Results

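Transcripts of 10 genes that mark basophils, mast cells and eosinophils were followed in sorted myeloid cells of WT and ACKR2-/- mice. The genes were fixed by name, 10 of the 50104 gene identifiers shared by the 3 deposited count tables. Of these, 5 are basophil and mast cell genes, namely Mcpt8, Cpa3, Ms4a2, Fcer1a and Hdc. The other 5 are used as eosinophil genes, namely Siglecf, Epx, Prg2, Ear2 and Il5ra. ACKR2 is an atypical chemokine receptor that takes up inflammatory CC chemokines, and the study asked how its loss bears on eosinophils and monocytes in the bone marrow.

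The 26 samples came from naive female mice. WT C57BL/6J animals were bought from a supplier and ACKR2-/- animals were bred as a separate homozygous colony, so genotype and colony cannot be told apart. Mice of the study were 8 to 10 weeks old where no other age was given. The first population was Ly6C+ CD11b+ monocytes of the bone marrow, sorted without cells positive for Ly6G, SiglecF or F4/80 (4 WT and 4 ACKR2-/- samples). The second was small peritoneal macrophages (SPMs), taken as CD11b+ MHCII+ cells with intermediate F4/80 (4 and 4 samples). The third was MHCII negative lung macrophages, CD11b+ F4/80+ cells sorted without cells positive for Ly6G, SiglecF or Ly6C (5 and 5 samples). Each monocyte and SPM sample held cells of 5 mice, while the number of mice behind a lung sample is not stated in the sources used here. None of these gates named a mast cell or basophil surface marker, and the SPM gate named no SiglecF step.

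Basophils and mast cells carry the high-affinity IgE receptor, whose alpha chain is encoded by Fcer1a and beta chain by Ms4a2. They store histamine, which is made by histidine decarboxylase (Hdc), together with granule proteases. Cpa3 encodes the mast cell carboxypeptidase, which mouse basophils also make, and Mcpt8 encodes a protease used as a marker of mouse basophils. Eosinophils store eosinophil peroxidase (Epx) and major basic protein (Prg2), respond to IL-5 through the receptor alpha chain Il5ra and carry the sialic acid binding lectin SiglecF (Siglecf). Ear2 belongs to a family of eosinophil-associated ribonucleases. Siglecf is also a marker of alveolar macrophages, transcripts of Ear family genes are known in macrophages, and Hdc is also transcribed in immature myeloid cells. Siglecf, Ear2 and Hdc are therefore not strict markers of eosinophils, basophils or mast cells. How strictly the other members mark these cells in the sorted populations was not tested.

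GATA factors are central to the basophil, mast cell and eosinophil lineages, and GATA sites are known in promoters of several of their genes. The 110 bases before the RefSeq transcript start (GRCm38.p6) are therefore shown for 7 of the 8 tested members with the widest differences in level between the WT cell populations. Capitals mark the GATA motif on either strand, searched as AGATAA and as the variants TGATAA and AGATAG, and also TGATAG. The motif was chosen after the expression values had been seen, and no other motif was searched.
Cpa3 (chr3:20242182-20242291, minus strand): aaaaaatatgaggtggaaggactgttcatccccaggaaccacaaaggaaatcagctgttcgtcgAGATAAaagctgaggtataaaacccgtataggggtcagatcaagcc
Fcer1a (chr1:173227230-173227339, minus strand): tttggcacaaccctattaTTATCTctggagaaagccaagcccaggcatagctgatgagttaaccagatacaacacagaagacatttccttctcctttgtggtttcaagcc
Il5ra (chr6:106749038-106749147, minus strand): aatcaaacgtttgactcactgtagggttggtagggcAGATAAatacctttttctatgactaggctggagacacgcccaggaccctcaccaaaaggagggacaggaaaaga
Ms4a2 (chr19:11623720-11623829, minus strand): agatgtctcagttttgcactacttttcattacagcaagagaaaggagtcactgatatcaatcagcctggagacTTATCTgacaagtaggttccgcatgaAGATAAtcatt
Ear2 (chr14:44102544-44102653, plus strand): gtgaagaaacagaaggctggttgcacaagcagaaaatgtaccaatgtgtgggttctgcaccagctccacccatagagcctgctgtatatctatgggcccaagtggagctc
Siglecf (chr7:43351231-43351340, plus strand): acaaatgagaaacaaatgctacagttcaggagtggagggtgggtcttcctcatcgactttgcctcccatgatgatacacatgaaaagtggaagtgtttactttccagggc
Mcpt8 (chr14:56085198-56085307, minus strand): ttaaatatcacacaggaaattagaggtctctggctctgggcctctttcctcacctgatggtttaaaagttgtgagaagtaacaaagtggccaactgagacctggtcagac
In Cpa3 the motif began 46 bases before the start. In Fcer1a it began 92 bases before the start, on the opposite strand to the gene. Ms4a2 held it at 37 and 11 bases before the start within the stretch shown. In Il5ra it lay 74 bases before the start. The stretches of Ear2, Siglecf and Mcpt8 held none, and the RefSeq start of Mcpt8 lay 76 bases from the gene start of the deposited table. Over the full 250 bases before the start, 5 of the 9 members with a RefSeq promoter held the motif, against 26.5% of all 32851 promoters (8718). A match of 6 letters is a description of the sequence and shows no binding. Prg2, the other one of these 8, was not in the promoter table used.

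Read counts were converted to CPM within each cell type, as counts per 1000000 reads of the filtered library size times the TMM scaling factor. CPM ranges of different cell types were therefore scaled apart, while fold changes between cell types came from a joint fit of all 26 libraries. The test between genotypes was edgeR's quasi-likelihood test, run for each cell type on its own, and a gene was called at a Benjamini-Hochberg adjusted p under 0.05 over all genes tested with an absolute log2 fold change over 0.5. Counted reads per sample ranged from 15450670 to 19218213 in monocytes, 12781144 to 35400034 in SPMs and 19950019 to 29770252 in lung macrophages. A count of 3 reads, the smallest level treated as measurable, corresponded to 0.158 to 0.195 CPM in monocytes, 0.0773 to 0.264 CPM in SPMs and 0.0985 to 0.160 CPM in lung. These limits cover counting error only, and the p-values measure the spread between samples, which for the pooled samples is a spread between pools.

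The targeted gene, Ackr2, had 0 to 2 reads in WT and 0 in ACKR2-/- monocytes. It had 5 to 9 reads in each WT SPM library and 0 in each ACKR2-/- one. In lung, 4 of 5 WT libraries held reads, with up to 469, all 5 ACKR2-/- libraries held 7 to 50, and the library labelled WT replicate 5 held 0. Other libraries also stood apart in lung. The library labelled WT replicate 5 and ACKR2-/- replicate 4 had the lowest sums of 5 lung epithelial genes (415 and 251 CPM against 6104 to 18882 in the other 8 libraries). WT lung replicate 3 had 1787 CPM over 7 nonclassical monocyte genes against 5228 to 9481 in the others, and its sum of 8 macrophage genes was 14494 CPM against 2361 to 5314. It also held 411057 reads of the MHCII gene H2-Ab1, although the sort was MHCII negative. The other WT lung libraries held 11234 to 36170 such reads and the ACKR2-/- ones 6292 to 39723. In ACKR2-/- monocytes, 7 of 8 T cell genes were called higher, with a summed level of 59.8 to 108 CPM against 2.95 to 4.31 CPM in WT. The part of each of these in the results on the 10 members was not tested, except where values without a library are given.

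In WT cells the order of the 10 genes by level differed between the populations. Ear2 led in each population per kilobase of transcript, at 136 ± 9.85 CPM per kb in monocytes (SD, n = 4), 787 ± 174 in SPMs (n = 4) and 1349 ± 574 in lung macrophages (n = 5). In monocytes it was followed by Hdc at 23.0 ± 5.52 CPM per kb, with no overlap with Ear2. Hdc, Mcpt8, Prg2 and Siglecf then formed a run in which each gene overlapped the next in range. Siglecf at 5.40 ± 1.10 CPM per kb stood clear of Cpa3 at 1.23 ± 0.470, and below that point neighbours overlapped down to Il5ra at 0.0161 ± 0.0128. In SPMs the order was different. Cpa3 overlapped Ear2, at 454 ± 345 CPM per kb, and stood clear of Fcer1a at 36.2 ± 24.8, which stood clear of Hdc at 1.13 ± 0.518. In lung, Ear2 stood clear of Hdc at 9.30 ± 9.97 CPM per kb, and from Hdc to Epx no neighbours separated.

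**Figure D1:**
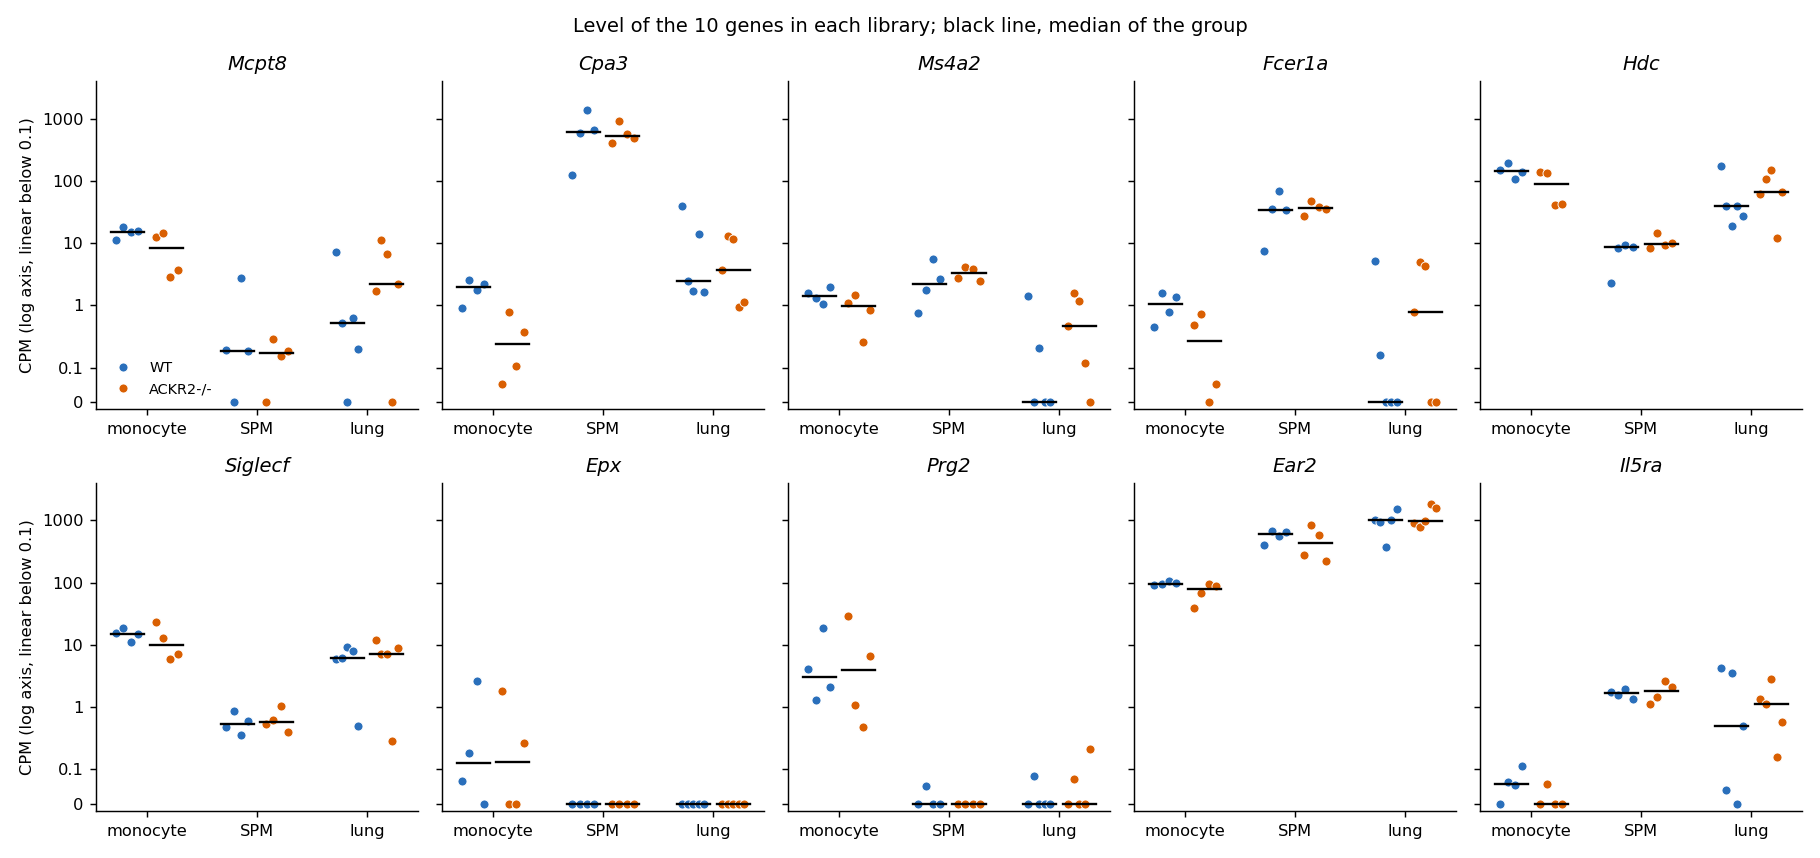
Levels of the 10 genes in each of the 26 libraries, as CPM on a log axis that is linear below 0.1, by cell type and genotype, with 1 point per library and a black line at the group median. By group median, Cpa3 and Fcer1a are highest in SPMs, and Hdc and Mcpt8 in monocytes. Some lung libraries reach or exceed monocyte libraries for Hdc and Mcpt8. Ear2 is high in lung macrophages and SPMs, and Epx has points above 0 in monocytes only.

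Between WT monocytes and WT SPMs, 8 of the 9 members tested were called, 4 higher and 4 lower in monocytes. Of all 17792 genes tested in a fit of all 26 libraries, 41.9% were called, 20.1% higher and 21.8% lower. Between WT monocytes and WT lung macrophages 6 of 9 were called (3 higher and 3 lower), against 63.8% of all genes (24.4% and 39.5%), and between WT SPMs and WT lung macrophages 5 of 9 (3 higher and 2 lower), against 62.3% (23.2% and 39.1%). In both comparisons with lung macrophages the share of members called in either direction lay near that of all genes. The median log2 difference over all genes was 0.00, −0.34 and −0.41 in the 3 comparisons. Each population has a count table of its own, so cell type cannot be told apart from the table and its preparation.

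Cpa3 had the widest range. WT monocyte libraries held 0.912, 2.55, 1.78 and 2.24 CPM, WT SPM libraries 124, 595, 1391 and 643 CPM, and WT lung libraries 39.7, 2.47, 1.71, 13.9 and 1.61 CPM. Every WT SPM library stood above every other WT library. The log2 difference was −9.70 between monocytes and SPMs (SE 1.24, edgeR adjusted p = 6.06e-07) and 7.02 between SPMs and lung (SE 0.992, edgeR adjusted p = 1.20e-06). The monocyte to lung difference of −2.68 (SE 0.931, edgeR adjusted p = 0.0141) rested on WT lung replicate 1, without which it was −1.33 (edgeR adjusted p = 0.156).

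Fcer1a, the IgE-binding chain, shared the SPM pattern. Its level was 7.38, 35.0, 67.9 and 34.3 CPM in WT SPMs, against 0.456 to 1.55 CPM in WT monocytes. Of the WT lung libraries, replicate 1 held 5.24 CPM and the other 4 held 0 to 0.162 CPM. SPMs were higher than monocytes by 6.30 on the log2 scale, given as −6.30 for monocytes minus SPMs (SE 1.34, edgeR adjusted p = 0.000428), and higher than lung macrophages by 6.21 (SE 1.20, edgeR adjusted p = 8.31e-05), or by 10.7 without WT lung replicate 1, where 4 reads were left in lung. Monocytes and lung macrophages were not called apart, at −0.09 with a 95% interval from −2.56 to 2.38. Without WT lung replicate 1 that difference was 4.38 (edgeR adjusted p = 0.0125).

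Ms4a2, the beta chain of the same receptor, was lower than Fcer1a in WT SPMs per kilobase of transcript, at 0.964 ± 0.746 against 36.2 ± 24.8 CPM per kb (SD, n = 4). It reached 0.767, 1.76, 5.63 and 2.70 CPM in WT SPMs and 1.06 to 1.96 CPM in WT monocytes, which lay inside the SPM range. The difference of −2.05 between them missed the threshold (95% interval −4.09 to −0.003, edgeR adjusted p = 0.103). SPMs exceeded lung macrophages, where 3 of 5 WT libraries held no Ms4a2 read, by 4.19 (SE 1.02, edgeR adjusted p = 0.000911), or by 6.88 without WT lung replicate 1. Monocytes minus lung was 2.14 (edgeR adjusted p = 0.0581), and 4.83 without WT lung replicate 1 (edgeR adjusted p = 0.000371).

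In WT cells, Hdc and Mcpt8 had their highest group median in monocytes. Hdc, the histamine-forming enzyme, was at 148, 193, 107 and 139 CPM in WT monocytes and 2.30, 8.47, 9.41 and 8.76 CPM in WT SPMs, ranges far apart. In WT lung it was at 172 CPM in replicate 1 and 18.7 to 39.7 CPM in the other 4. Monocytes exceeded SPMs by 3.16 (SE 0.676, edgeR adjusted p = 0.000443). SPMs were below lung macrophages by −1.88 (SE 0.627, edgeR adjusted p = 0.0114), but without WT lung replicate 1 the difference was −0.89 and was no longer called. Monocytes minus lung was 1.28 (edgeR adjusted p = 0.0577), and 2.27 without that library (edgeR adjusted p = 0.000640).

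Mcpt8, the basophil protease, was at 11.1, 18.3, 15.02 and 15.6 CPM in WT monocytes. In WT SPMs it was at 0.192, 0, 2.73 and 0.185 CPM, so a single library held nearly all of it. In WT lung, replicate 1 held 7.08 CPM and the other 4 held 0 to 0.627 CPM. Monocytes exceeded SPMs by 3.29 (SE 1.31, edgeR adjusted p = 0.0453), a call that was lost on leaving out 7 of the 8 libraries in turn. Without WT SPM replicate 3 the difference was 5.66. Monocytes exceeded lung macrophages by 3.10 (SE 1.13, edgeR adjusted p = 0.0191), a call kept on leaving out each library in turn, with 5.44 without WT lung replicate 1.

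The eosinophil genes did not move together across populations. Epx had 52 reads in WT monocytes and none in any SPM or lung library, a level under the 3-read limit in each of those 18 libraries. Prg2 was at 4.10, 1.31, 18.6 and 2.07 CPM in WT monocytes, had 1 read in all WT SPM libraries together and 2 in all WT lung libraries together. Prg2 passed the test against both macrophage populations (edgeR adjusted p = 0.000596 against SPMs and 2.05e-05 against lung), with no fold given because the macrophage groups lay under the limit.

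Ear2 went the other way. WT lung libraries held 1010.3, 943, 365, 1004 and 1528 CPM, WT SPM libraries 394, 673, 553 and 643 CPM, and WT monocytes 91.4, 93.1, 107 and 99.3 CPM. Monocytes stood below each other population with no overlap, by −3.71 against SPMs (SE 0.442, edgeR adjusted p = 1.96e-07) and −3.31 against lung (SE 0.426, edgeR adjusted p = 2.88e-07). SPMs and lung macrophages were not called apart, at 0.40 with a 95% interval from −0.37 to 1.18. The label of eosinophil gene thus went against the data for Ear2 in SPMs and lung macrophages, where it was abundant in libraries with no Epx and at most 4 reads of Prg2. Ear family genes are near-identical copies, so reads of Ear2 and its paralogs cannot be fully separated.

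Siglecf was at 15.5, 18.8, 11.3 and 14.7 CPM in WT monocytes, a population sorted without SiglecF positive cells. It was at 0.352 to 0.878 CPM in WT SPMs and at 5.85, 6.08, 9.30, 7.92 and 0.504 CPM in WT lung macrophages, the last being the library labelled WT replicate 5. Monocytes exceeded SPMs by 3.51 (SE 0.743, edgeR adjusted p = 0.000396), and SPMs were below lung by −2.13 (SE 0.700, edgeR adjusted p = 0.0105). The monocyte to lung difference of 1.38 (edgeR adjusted p = 0.0487) was lost under most alternatives. Il5ra, the IL-5 receptor chain, was lowest in monocytes, with 4 reads over the 4 WT libraries. It was at 1.77, 1.55, 1.93 and 1.33 CPM in WT SPMs (1.65 ± 0.264, SD, n = 4). In WT lung it was split, with 4.25 and 3.51 CPM in replicates 1 and 3 and 0 to 0.504 CPM in the other 3 libraries. Monocytes were below both (edgeR adjusted p = 0.000509 against SPMs and 0.00166 against lung), and SPMs and lung were not called apart, at 1.14 with a 95% interval from −0.67 to 2.94. Like Ear2, Il5ra thus had reads in SPM and lung libraries without any Epx read, and the cells behind these reads were not tested.

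In monocytes, no member passed the edgeR test for genotype. Of the 10 genes, 8 passed the filter on low counts, 0 were called against 1.27% of the 13246 genes tested, and 2 had an unadjusted p under 0.05 (Cpa3 and Fcer1a), against 2251 genes, 17% of those tested. The log2 fold change of ACKR2-/- over WT was negative for 7 of the 8, with a median of −0.70 against 0.00 over all genes tested. DESeq2 called 1 member, Cpa3, which was lower, against 3.38% of its 15969 genes in either direction and 1.16% lower. In bulk RNA, fewer cells of a type and less RNA per cell cannot be told apart.

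Cpa3, the carboxypeptidase, was at 0.912, 2.55, 1.78 and 2.24 CPM in WT monocytes and at 0.0538, 0.797, 0.105 and 0.372 CPM in ACKR2-/- monocytes. These values rest on 127 and 24 reads, and 2 of the ACKR2-/- libraries lay under the 3-read limit. Every ACKR2-/- library stood below every WT library, which held for 1 of the 8 members and for 5.25% of all genes tested (10.2% in either direction). The log2 fold change was −2.49 (SE 0.61, 95% interval −3.83 to −1.15, edgeR adjusted p = 0.0797). An exact two-sided permutation test of the mean CPM gave p = 0.0286, the smallest value 4 against 4 libraries allow, and was the only one under 0.05 among 28 such tests over members and cell types. Leaving out ACKR2-/- replicate 2, the highest of its group, gave −3.34 (edgeR adjusted p = 0.0292), the only call among 8 leave-one-out fits. The smallest change was −2.14, without ACKR2-/- replicate 1, and the edgeR adjusted p reached up to 0.229 over these fits. DESeq2 on all libraries gave −2.51 (adjusted p = 0.0061).

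The other basophil and mast cell genes were lower in 2 of the 4 ACKR2-/- libraries. Mcpt8 was at 11.1, 18.3, 15.02 and 15.6 CPM in WT and at 12.7, 14.7, 2.84 and 3.72 CPM in ACKR2-/- monocytes. Hdc was at 148, 193, 107 and 139 CPM in WT and at 139, 133, 41.3 and 42.4 CPM in ACKR2-/- monocytes. For both genes ACKR2-/- replicates 1 and 2 lay within the WT range, while replicates 3 and 4 lay below every WT library. The log2 fold changes were −0.82 for Mcpt8 (95% interval −1.78 to 0.14, edgeR adjusted p = 0.363) and −0.72 for Hdc (95% interval −1.55 to 0.10, edgeR adjusted p = 0.352).

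Fcer1a, the IgE-binding chain, was at 0.456, 1.55, 0.779 and 1.34 CPM in WT monocytes. In ACKR2-/- monocytes it was at 0.484, 0.740, 0 and 0.0531 CPM, again with the lowest values in replicates 3 and 4. The fold change was −1.70 on the log2 scale (95% interval −3.36 to −0.03, edgeR adjusted p = 0.286), and 70 and 23 reads lay behind it. Ms4a2 followed at 1.56, 1.31, 1.06 and 1.96 CPM in WT and 1.08, 1.48, 0.263 and 0.850 CPM in ACKR2-/- monocytes. Its fold change was −0.68 (95% interval −1.66 to 0.29, edgeR adjusted p = 0.452).

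Summed levels of progenitor and neutrophil genes were also lowest in these 2 libraries. Genes named here and below outside the members, without being called in a genotype comparison, were picked after their values had been seen. The sum of 8 granulocyte-monocyte progenitor genes was 16356 to 31936 CPM in WT and 25276, 26773, 10421 and 10970.4 CPM in ACKR2-/- replicates 1 to 4. The sum of 9 neutrophil genes was 38953 to 90547 CPM in WT and 53746, 57048, 12660.1 and 20528 CPM in ACKR2-/- libraries. Elane, Mpo, Ngp, Camp, S100a8 and S100a9 made up most of these sums, and not every gene of the lists followed. Cd34 was at 7.10 to 11.4 CPM in WT and 32.8, 15.4, 13.9 and 24.1 CPM in ACKR2-/- monocytes, and Mmp8 at 145 to 249.4 CPM in WT and 103, 99.5, 308 and 234 CPM in ACKR2-/- monocytes. Kit, the stem cell factor receptor of progenitors and mast cells, was at 9.79 to 13.99 CPM in WT and 18.1, 13.8, 3.16 and 3.82 CPM in ACKR2-/- monocytes. The part of these differences in the levels of Mcpt8, Hdc, Fcer1a and Ms4a2 was not tested. Prss34, another basophil protease, did not follow Mcpt8 in every library. It was at 18.2, 30.5, 28.3 and 24.2 CPM in WT and 0.753, 20.6, 0.158 and 4.83 CPM in ACKR2-/- monocytes, so that ACKR2-/- replicate 1 combined a low Prss34 and Cpa3 with a Mcpt8 level inside the WT range. Of the 12 mast cell genes, 6 had no read in any monocyte library, among them the proteases Cma1, Mcpt4, Tpsb2 and Tpsab1.

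**Figure D2:**
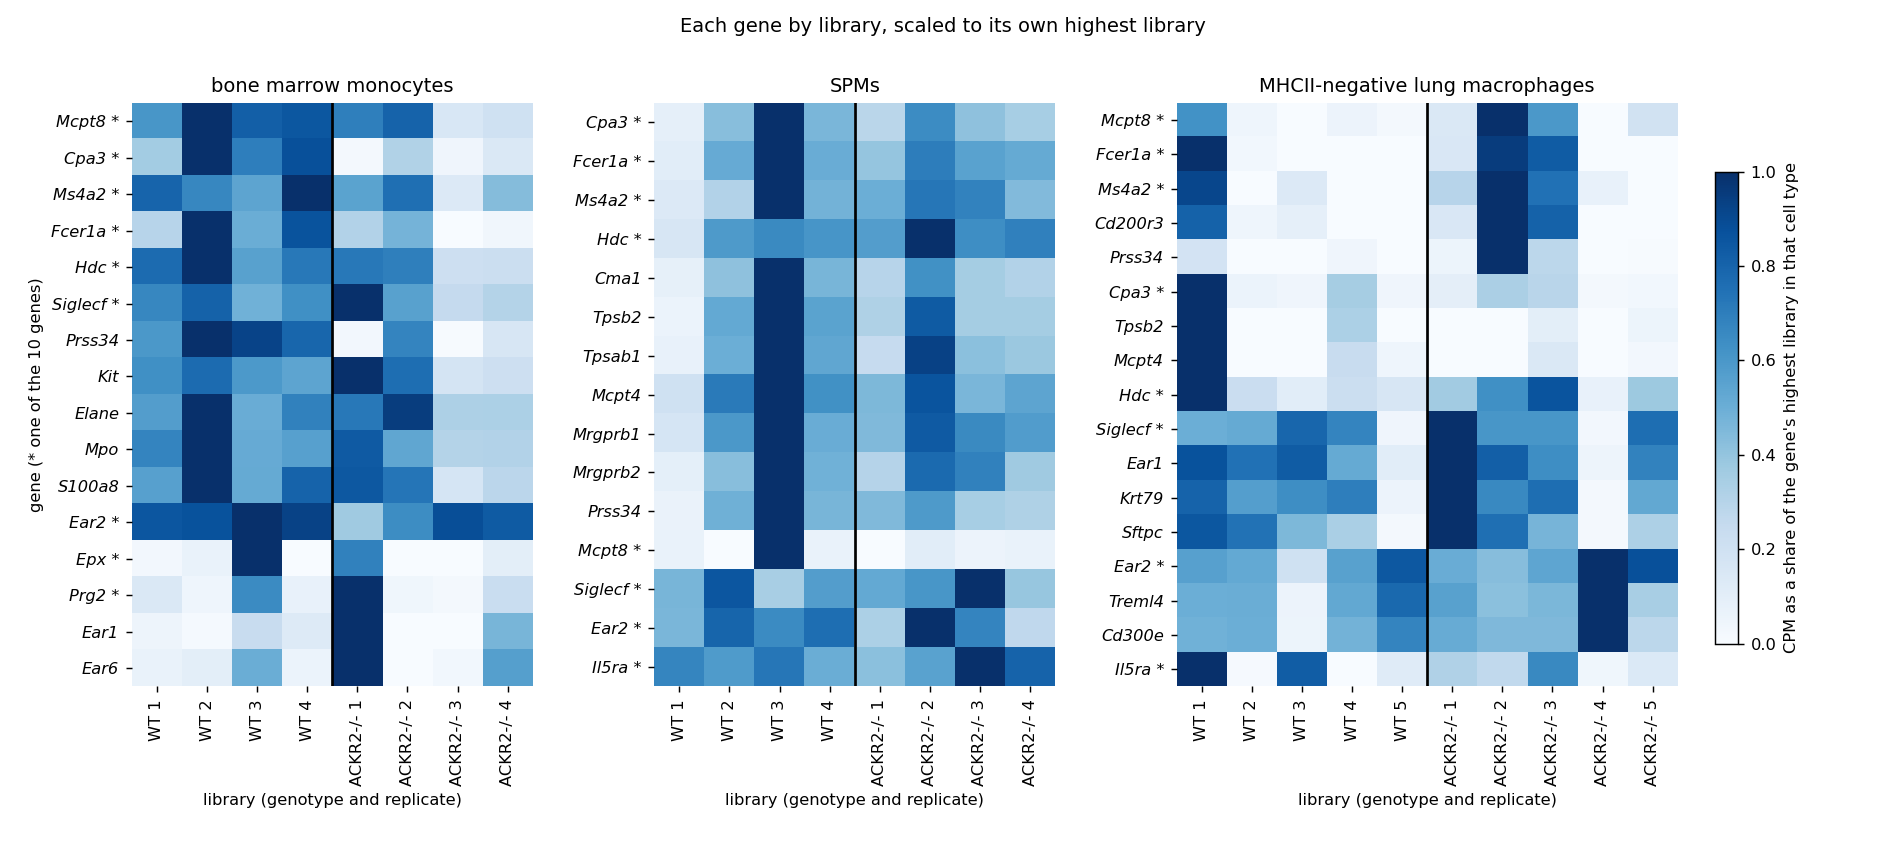
Heat maps of the members and selected other genes by library in each cell type, with every gene shown as its share of its own highest CPM. In monocytes Mcpt8, Hdc and Siglecf are pale in ACKR2-/- replicates 3 and 4, and Epx and Prg2 are dark in WT replicate 3 and ACKR2-/- replicate 1.

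Of the eosinophil genes, Epx and Prg2 were present in a subset of monocyte libraries of both genotypes. Epx was at 0.0651, 0.187, 2.67 and 0 CPM in WT and 1.83, 0, 0 and 0.266 CPM in ACKR2-/- monocytes, from 52 and 39 reads, and was not tested. Prg2 was at 4.10, 1.31, 18.6 and 2.07 CPM in WT and 28.6, 1.08, 0.474 and 6.69 CPM in ACKR2-/- monocytes. The 2 genes were highest in the same libraries, WT replicate 3 and ACKR2-/- replicate 1, followed by ACKR2-/- replicate 4. Prg2 had a log2 fold change of 0.49 with a 95% interval from −1.77 to 2.75 (edgeR adjusted p = 0.839). Leaving out ACKR2-/- replicate 1 turned it to −1.25, and leaving out WT replicate 3 raised it to 1.88.

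Ear1 and Ear6, ribonucleases of the Ear family, shared part of this pattern. Ear1 was at 0.195, 0.0622, 0.946 and 0.503 CPM in WT and 3.98, 0, 0 and 1.86 CPM in ACKR2-/- monocytes. Ear6 was at 0.130, 0.187, 0.946 and 0.112 CPM in WT and 1.88, 0, 0.0526 and 1.06 CPM in ACKR2-/- monocytes. Both were highest in ACKR2-/- replicate 1. Ccr3, the eosinophil chemokine receptor, did not follow them, with 0 CPM in ACKR2-/- replicate 1 and 0.0569, 0.210 and 0.425 CPM in the other ACKR2-/- libraries, against 0.0622 to 0.334 CPM in WT. Prg3, a homolog of Prg2, was highest in ACKR2-/- replicate 1 at 3.23 CPM, but was at 2.39 CPM in ACKR2-/- replicate 2, which had no Epx read, and at 1.11 CPM in WT replicate 3, inside the range of the other WT libraries (0.782 to 1.24 CPM). Ear2 itself was at 91.4, 93.1, 107 and 99.3 CPM in WT and 39.4, 68.6, 94.7 and 89.3 CPM in ACKR2-/- monocytes, lowest in the library where Ear1, Ear6 and Prg2 were highest. Its fold change was −0.42 (95% interval −0.90 to 0.06, edgeR adjusted p = 0.354), and the top ACKR2-/- value overlapped the WT range.

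Siglecf was at 15.5, 18.8, 11.3 and 14.7 CPM in WT and 23.3, 12.9, 5.84 and 7.12 CPM in ACKR2-/- monocytes, so that ACKR2-/- libraries held both the highest and the lowest values. Its fold change was −0.29 with a 95% interval from −1.09 to 0.50 (edgeR adjusted p = 0.712). Kit was also highest in ACKR2-/- replicate 1 and lowest in replicates 3 and 4. Il5ra had 4 reads in WT and 1 in ACKR2-/- monocytes, too few for a comparison.

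The pathways around these genes gave few calls in monocytes. Of 16 genes of the IgE receptor and its proximal signalling, all 16 were tested and 1 was higher. It was Lat, an adaptor that T cells also use, at 0.447 to 0.684 CPM in WT and 3.70 to 7.69 CPM in ACKR2-/- monocytes (log2 fold change 3.16, edgeR adjusted p = 0.00054). The T cell genes moved in the same libraries, and their part in the rise of Lat was not tested. Fcer1g, the gamma chain shared with other Fc receptors, had a fold change of −0.16 (edgeR adjusted p = 0.768). Of 11 genes of IL-5, IL-3 and GM-CSF signalling, 7 were tested and 0 were called. Of 7 genes of the eosinophil receptor CCR3 and its ligands, 3 were tested and the ligand Ccl5 was higher (2.90, edgeR adjusted p = 0.00102), a chemokine also made by T cells. None of 8 tested granulocyte lineage transcription factors was called, all 8 had negative fold changes, and their median was −0.35 against 0.00 over all genes. None was called among 4 tested genes of histamine handling, 2 of the chymase locus or 3 eosinophil-associated ribonucleases. In the Siglec family, 6 of 7 genes were tested. Siglech, known from plasmacytoid dendritic cells, was higher (2.95, edgeR adjusted p = 0.00795). Cd33 and Siglece, sialic acid binding lectins of myeloid cells, were lower (−0.56 and −0.65, both with edgeR adjusted p = 0.0387). Cd34 was the only called gene of the progenitor list (1.26, edgeR adjusted p = 0.0466).

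In SPMs the mast cell genes Cpa3, Cma1, Mcpt4 and Tpsb2 were abundant in both genotypes. The other genes of the mast cell list were lower, with Kit at 1.15 to 1.59 CPM in WT and 1.53 to 2.24 CPM in ACKR2-/- SPMs. No member was called for genotype among 7 tested, against 0.0462% of the 12997 genes tested. None had an unadjusted p under 0.05, DESeq2 called none (0.15% of its genes), and the median log2 fold change was 0.15 against −0.05 over all genes. The CPM ranges of the genotypes overlapped for all 7 tested members, while they were apart for 3.40% of all genes. The smallest exact permutation p over the members with reads was 0.229.

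Cpa3 was at 124, 595, 1391 and 643 CPM in WT SPMs (688 ± 524, SD, n = 4) and at 399, 899, 571 and 478 CPM in ACKR2-/- SPMs (587 ± 219.8, n = 4). The lowest and the highest library were both WT, replicates 1 and 3. The fold change was −0.23 on the log2 scale (95% interval −1.44 to 0.98, edgeR adjusted p = 0.933), and it turned to 0.37 without WT replicate 3. Fcer1a was at 7.38, 35.0, 67.9 and 34.3 CPM in WT and 27.0, 47.7, 37.5 and 35.1 CPM in ACKR2-/- SPMs. It was again lowest in WT replicate 1 and highest in WT replicate 3, with a fold change of 0.03 (95% interval −1.04 to 1.11).

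Ms4a2 was at 0.767, 1.76, 5.63 and 2.70 CPM in WT and 2.80, 4.11, 3.84 and 2.50 CPM in ACKR2-/- SPMs, with nearly the order of Cpa3 within each genotype but not across genotypes. Its fold change was 0.32 (95% interval −0.76 to 1.40). Hdc was at 2.30, 8.47, 9.41 and 8.76 CPM in WT and 8.24, 14.4, 9.17 and 9.88 CPM in ACKR2-/- SPMs, with its maximum in ACKR2-/- replicate 2. Its fold change was 0.53 (95% interval −0.33 to 1.38, edgeR adjusted p = 0.788), the smallest adjusted p of the 7.

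These 4 genes varied between libraries with the rest of the mast cell genes. All 12 genes of the mast cell list had reads in SPMs, and WT replicate 1 was lowest for 11 of the 12 while WT replicate 3 was highest for 9. The sum of the 8 mast cell genes that are no members was 477, 2676, 5655 and 2868 CPM in WT and 1784, 4072, 2046 and 1933 CPM in ACKR2-/- SPMs. Cma1, a chymase of connective tissue mast cells, was at 269.5, 1308, 3171 and 1478 CPM in WT and 936, 1986, 1117 and 980.3 CPM in ACKR2-/- SPMs. Tpsb2, a mast cell tryptase, was at 124, 1078, 2067 and 1133 CPM in WT and 663, 1725, 728 and 729.6 CPM in ACKR2-/- SPMs. Over the 8 libraries the Pearson correlation of log2 levels with Cpa3 was 0.98 for Fcer1a, 0.91 for Ms4a2 and 0.88 for Hdc, a description of points that share library and sort. The mast cell genes and the SPM genes cannot be assigned to separate cells in bulk RNA, and the part of admixed mast cells in the level of Cpa3 was not tested. Slc18a2, the vesicular transporter that loads histamine, went the other way and was highest in WT replicate 1 at 3.55 CPM.

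**Figure D3:**
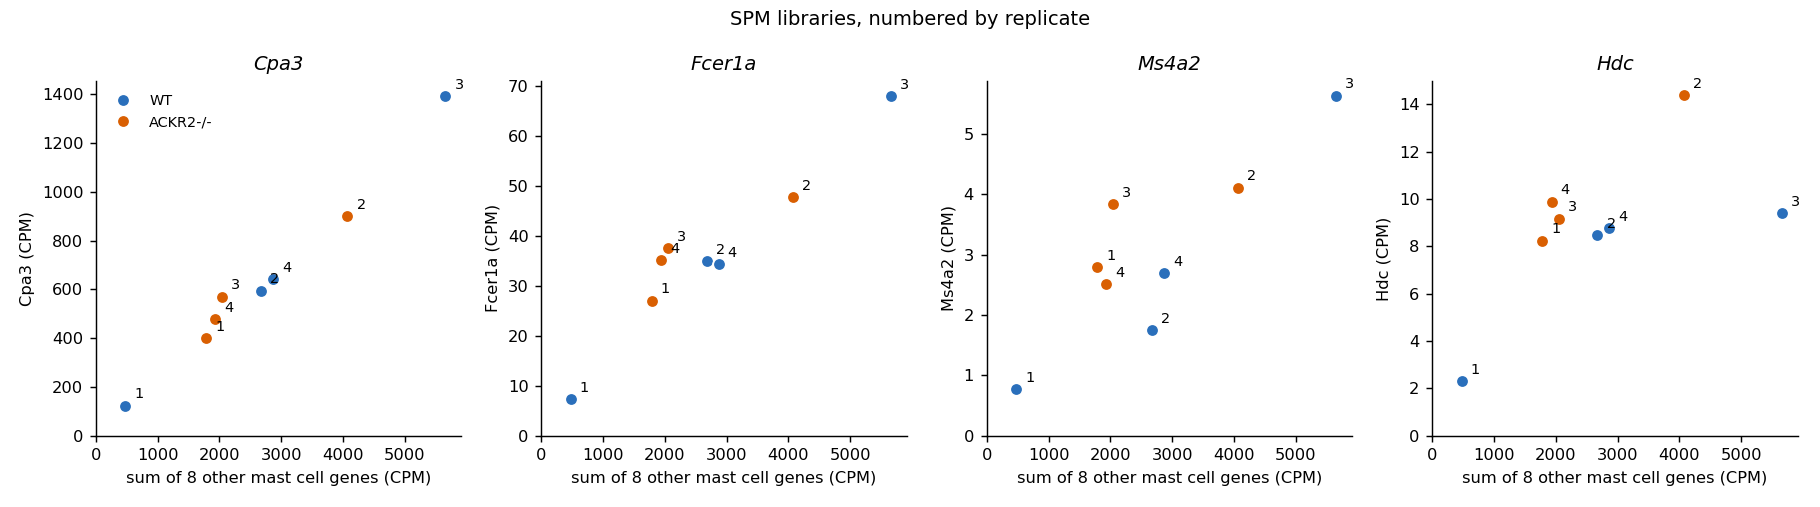
Levels of Cpa3, Fcer1a, Ms4a2 and Hdc (CPM, vertical axes) against the summed CPM of 8 other mast cell genes (horizontal axes) in the 8 SPM libraries, on linear axes from 0, 1 point per library coloured by genotype and numbered by replicate. Each of the 4 genes is lowest in WT replicate 1, where the sum is 477 CPM, and Cpa3 and Fcer1a are highest in WT replicate 3, where it is 5655 CPM.

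Mcpt8, Siglecf, Il5ra, Epx and Prg2 were at low level in SPMs. Mcpt8 was at 0.192, 0, 2.73 and 0.185 CPM in WT and 0, 0.293, 0.155 and 0.189 CPM in ACKR2-/- SPMs and was not tested. Its single high library, WT replicate 3, was also the highest for Prss34, at 82.0 CPM. Prss34 was not low in SPMs, at 5.18 CPM in WT replicate 1 and 26.6 to 48.2 CPM in the other 6, and the basophil gene Cd200r3 was at 4.598 to 13.9 CPM. Siglecf was at 0.352 to 0.878 CPM in WT and 0.404 to 1.03 CPM in ACKR2-/- SPMs (0.15, 95% interval −0.78 to 1.09). Il5ra was at 1.77, 1.55, 1.93 and 1.33 CPM in WT and 1.11, 1.47, 2.65 and 2.13 CPM in ACKR2-/- SPMs (0.18, 95% interval −0.56 to 0.91). It did not run with the mast cell genes, since WT replicate 1, lowest for Cpa3 and Fcer1a, had the second highest Il5ra of the WT libraries. Epx had no read and Prg2 had 1 read over all 8 libraries.

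Ear2 was at 394, 673, 553 and 643 CPM in WT SPMs (566 ± 125, SD, n = 4) and at 281, 848, 572 and 226 CPM in ACKR2-/- SPMs (482 ± 288, n = 4). ACKR2-/- replicates 1 and 4 lay below every WT library and replicate 2 above them all. The fold change was −0.23 (95% interval −1.09 to 0.62, edgeR adjusted p = 0.899). The 2 low libraries differed from the other 6 in genes of other lists. The sum of 8 other alveolar macrophage genes was 454 and 416 CPM there against 18.1 to 67.0 CPM, carried by the scavenger receptor gene Marco (206 and 311 CPM) and by Chil3 (248 and 104 CPM), which also stands on the classical monocyte list. The monocyte gene Ly6c2 was at 380 and 707 CPM against 16.8 to 56.6 CPM. Of the progenitor list, Prtn3 was at 189.6 and 148 CPM against 24.7 to 66.6 CPM, while Mpo had no read in either library. The part of these in the level of Ear2 was not tested. Among the pathway lists, none had a called gene in SPMs.

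In lung macrophages no member was called among 6 tested, against 0% of the 16824 genes tested, of which 499 had an unadjusted p under 0.05. None of the 6 had an unadjusted p under 0.05, DESeq2 called none (0.0938% of its genes), and genotype ranges overlapped for all 6, against 0.446% of genes with ranges apart. The median log2 fold change was 0.28, against −0.04 over all genes. The smallest exact permutation p was 0.246. With every adjusted p at 0.9999, the intervals below give what the libraries allow.

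The basophil and mast cell genes were concentrated in 3 lung libraries, WT replicate 1 and ACKR2-/- replicates 2 and 3. Fcer1a was at 5.24 CPM in WT replicate 1 and at 4.99 and 4.34 CPM in ACKR2-/- replicates 2 and 3, at 0.788 CPM in ACKR2-/- replicate 1, and at 0 to 0.162 CPM in the other 6 libraries. Ms4a2 was at 1.42, 1.55 and 1.16 CPM in the same 3 libraries and at 0 to 0.460 CPM in the other 7. Neither gene passed the filter on low counts. Mcpt8 was at 7.08, 0.527, 0, 0.627 and 0.201 CPM in WT and 1.67, 11.4, 6.75, 0 and 2.18 CPM in ACKR2-/- lung macrophages. The 3 libraries were again the highest, and the fold change was 1.38 with a 95% interval from −1.58 to 4.34. Without WT replicate 1 it was 3.67 and still not called.

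Hdc was at 172, 39.7, 18.7, 39.0 and 27.6 CPM in WT and 62.5, 109, 148, 12.2 and 65.1 CPM in ACKR2-/- lung macrophages, with the same 3 libraries on top. Its fold change was 0.42 (95% interval −1.06 to 1.90). Cpa3 was at 39.7, 2.47, 1.71, 13.9 and 1.61 CPM in WT and 3.74, 13.2, 11.6, 0.925 and 1.12 CPM in ACKR2-/- lung macrophages. It was also high in WT replicate 4, where Fcer1a had no read, and its fold change of −0.96 (95% interval −3.17 to 1.25) turned to 0.34 without WT replicate 1. The tryptase Tpsb2 divided these libraries further, at 58.4 CPM in WT replicate 1, 19.2 CPM in WT replicate 4 and 5.85 CPM in ACKR2-/- replicate 3, but 0.145 CPM in ACKR2-/- replicate 2. The basophil gene Cd200r3 was at 5.29, 6.54 and 5.29 CPM in the 3 libraries and at 0 to 0.985 CPM in the other 7, WT replicate 4 included at 0. The chymase Cma1 had another order, at 43.0, 5.43, 3.82, 33.2 and 15.8 CPM in WT and 71.1, 87.7, 32.8, 10.4 and 17.3 CPM in ACKR2-/- lung macrophages. It was highest in ACKR2-/- replicate 2, where Tpsb2 was low.

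Siglecf was at 5.85, 6.08, 9.30, 7.92 and 0.504 CPM in WT and 11.8, 7.09, 7.09, 0.282 and 8.93 CPM in ACKR2-/- lung macrophages. The 2 low libraries, labelled WT replicate 5 and ACKR2-/- replicate 4, stood far below the rest in both genotypes. They also had the lowest sums of 8 other alveolar macrophage genes, 119 and 77.9 CPM against 981 to 1945 CPM, and of the lung epithelial genes. The part of these in the level of Siglecf was not tested. The fold change was 0.24 (95% interval −1.46 to 1.95), and without the library labelled WT replicate 5 it was −0.04.

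Ear2 was at 1010.3, 943, 365, 1004 and 1528 CPM in WT and 916, 783, 972, 1807 and 1582 CPM in ACKR2-/- lung macrophages. It went against Siglecf in the libraries that stood apart, with the 2 libraries low in Siglecf among the 3 highest for Ear2. WT replicate 3, the lowest for Ear2, was also the lowest for each of 7 nonclassical monocyte genes, and ACKR2-/- replicate 4, the highest for Ear2, had the highest sum of these genes at 9481 CPM. Treml4, a receptor of nonclassical monocytes, was at 104 CPM in WT replicate 3 and 1799.7 CPM in ACKR2-/- replicate 4. The fold change of Ear2 was 0.32 (95% interval −0.45 to 1.09). Ear1 behaved like Siglecf and not like Ear2, at 4.68 and 2.17 CPM in the library labelled WT replicate 5 and ACKR2-/- replicate 4 and at 22.6 to 43.7 CPM in the others.

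**Figure D4:**
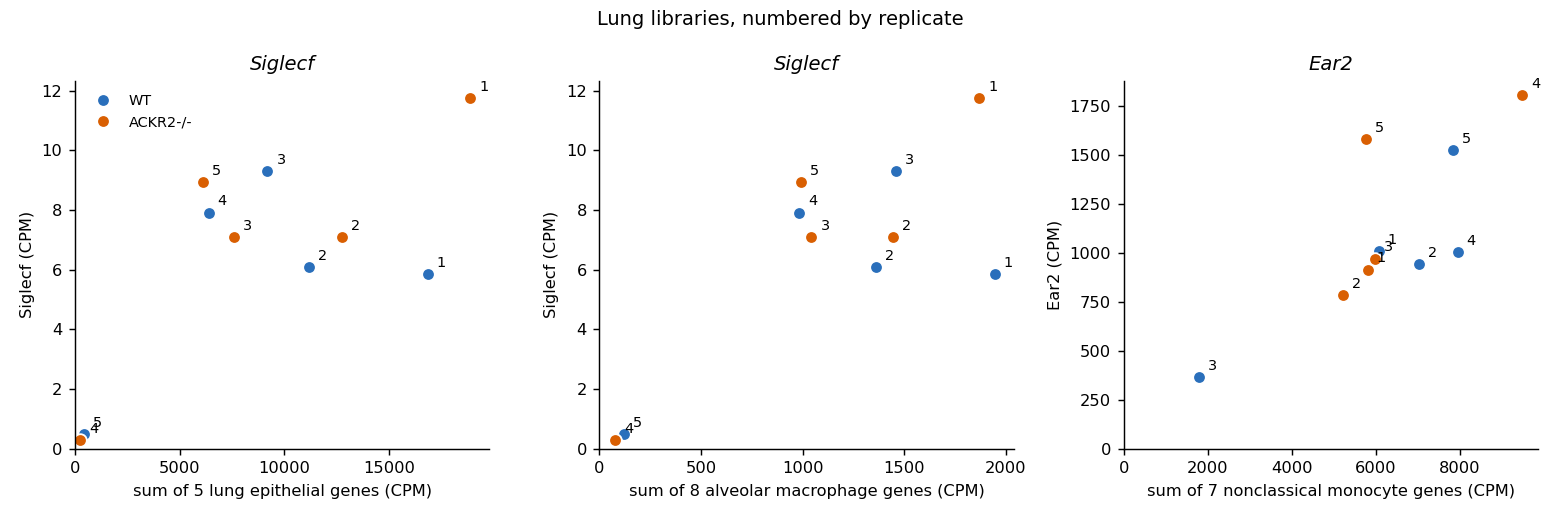
Siglecf against the summed CPM of 5 lung epithelial genes and of 8 alveolar macrophage genes, and Ear2 against the summed CPM of 7 nonclassical monocyte genes, in the 10 lung libraries, on linear axes from 0, 1 point per library coloured by genotype and numbered by replicate. The library labelled WT replicate 5 and ACKR2-/- replicate 4 sit at the low end of both Siglecf panels, and WT replicate 3 at the low end of the Ear2 panel, with 365 CPM of Ear2.

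Il5ra was at 4.25, 0.0405, 3.51, 0 and 0.504 CPM in WT and 1.35, 1.12, 2.79, 0.161 and 0.585 CPM in ACKR2-/- lung macrophages. Its high libraries were WT replicates 1 and 3 and ACKR2-/- replicate 3. Epx had no read and Prg2 had 8 over all 10 lung libraries. The fold change of Il5ra was −0.46 (95% interval −3.06 to 2.14). No gene of the pathway lists was called in lung.

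The genotype effect itself was compared between cell types in the fit of all 26 libraries, which shares the samples of each cell type between 2 of the 3 comparisons. No member of 9 tested was called in any, against 0.253% of all 17792 genes for monocytes minus SPMs, 0.152% for monocytes minus lung and 0.0393% for SPMs minus lung. None had an unadjusted p under 0.05, and DESeq2 called none either, against 0.788%, 0.619% and 0.139% of its genes. For Cpa3 the effect in monocytes minus that in SPMs was −2.33 (95% interval −5.32 to 0.66, edgeR adjusted p = 0.738), and minus that in lung it was −1.52 (95% interval −4.43 to 1.39). A difference between cell types in the response of Cpa3 was therefore not detectable with these libraries.

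**Figure D5:**
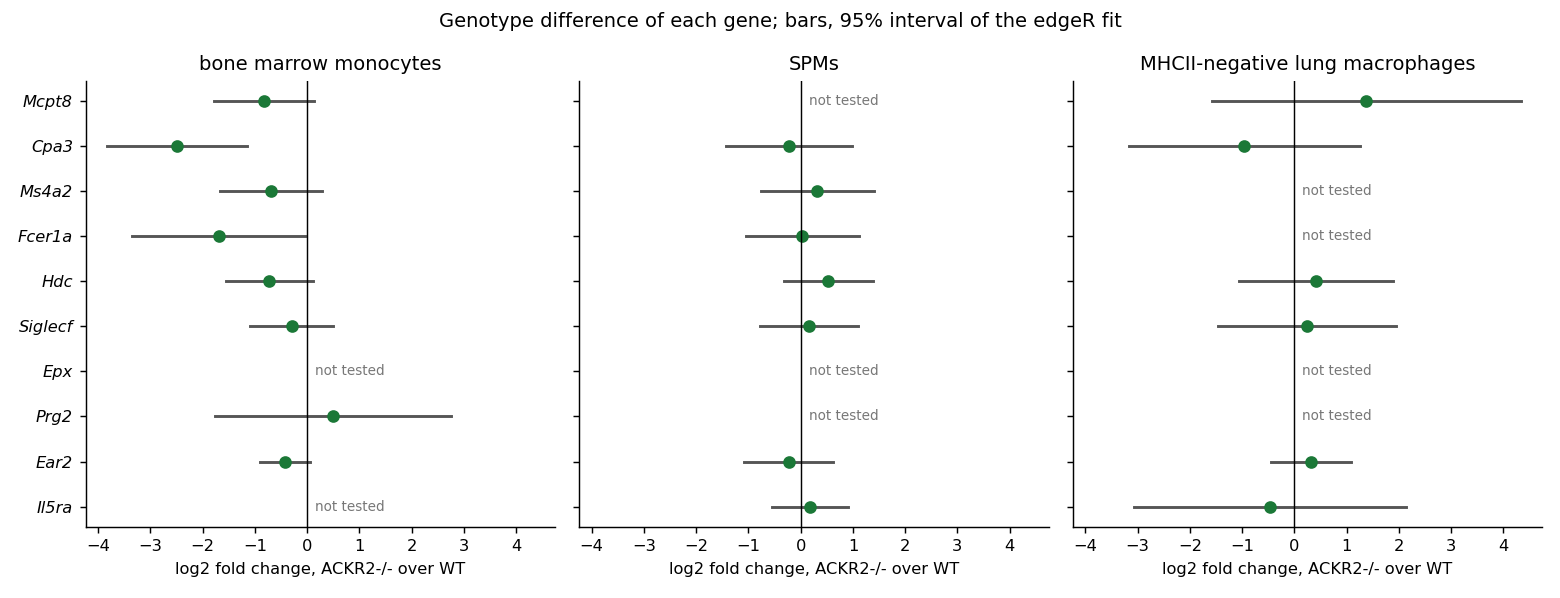
Log2 fold change of ACKR2-/- over WT with its 95% interval for each member tested in each cell type, from edgeR, with a line at 0. In monocytes the intervals of Cpa3 and Fcer1a lie below 0 before adjustment, and every SPM and lung interval spans 0.

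Likeness was measured as the Pearson correlation of log2(CPM + 1) after subtracting each cell type's mean, over 26 libraries and 17791 other genes, and the points share library, depth and sort. Among the basophil and mast cell members, Cpa3, Ms4a2, Fcer1a and Hdc each had another of these members as the nearest gene, and Mcpt8 did not. Fcer1a was nearest to Ms4a2 (0.90) and to the predicted gene Gm47599 (0.90), Cpa3 to Fcer1a (0.87), and Hdc to Fcer1a (0.85). Mcpt8 was nearest to Cd200r3 (0.84), an activating receptor of basophils and mast cells, and then to Hdc (0.79). The remaining genes in the top 3 of these 5 members were Fcer1a (0.77) for Mcpt8, Fbxo31 (0.80) and Tpsab1 (0.79) for Cpa3, Hibch (0.87) and Gm15542 (0.81) for Ms4a2, Cd200r3 (0.89) for Fcer1a, and Lrg1 (0.83) and Ica1 (0.82) for Hdc.

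No eosinophil member that passed the filter of that fit had another such member among its nearest 3 genes. Siglecf was nearest to Kit (0.90), Cables1 (0.88) and Bcar3 (0.87). Ear2 was nearest to Unc119 (0.90), Cyp4f18 (0.89) and Hfe (0.89). Prg2 was nearest to Fosb (0.81), to the ribonuclease gene Ear6 (0.80) and to Fsbp (0.78), and Il5ra to Gm19461 (0.85), Ttc30a1 (0.81) and Gm43909 (0.79). Epx did not pass the filter of that fit and so could not appear among the nearest genes, also not for Prg2, which peaked in the same monocyte libraries.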

How the data were processed

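RNA of sorted cells was enriched for poly-A transcripts, amplified with the SMARTer low-input chemistry and sequenced as paired reads by a commercial provider. The authors deposited 1 table of raw read counts per gene for each cell type. The submitters' processing notes name HISAT2 2.0.5, featureCounts 1.5.0-p3, DESeq2 and mm10, and no source used here states the strand setting. The deposited lung counts held 5 summary lines (56.3% of all counts in that table), which were left out. Genes were matched by identifier. Siglecf is named Siglec5 in the monocyte table under the same identifier, and positions are those of the deposited tables.

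Groups came from the sample labels. The sort gates are not reported in full here. Counts were analysed with edgeR 4.0.16 in R 4.3.3 (filterByExpr with a minimum count of 10 and total of 15, TMM factors, quasi-likelihood F-test), with DESeq2 1.42.0 as the alternative. Differences between cell types and between genotype effects came from 1 fit of all 26 samples over 50104 shared identifiers. Adjusted p-values are Benjamini-Hochberg values over all genes tested. Fold changes are log2, in the order ACKR2-/- minus WT or first minus second cell type, with 95% intervals. CPM are counts per 1000000 reads of the filtered library size times the TMM factor. Exact permutation tests (SciPy 1.17.1) compared mean CPM. Alternatives were RLE factors, no filter, a filter at 1 CPM, the replicate number as a block, calling on the adjusted p alone, and leaving out each library. No 2 libraries of a group agreed within sampling noise (chi-square per degree of freedom of at least 11.3 in 44 pairs). Scripts were tested on simulated data.

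The members and the 21 other gene lists were chosen with earlier results of these data known. All 10 members are named in every cell type, as are up to 5 called genes of each other list and the 3 genes most like each member, and any other gene was picked after its values were seen. Promoter sequences are from RefSeq, where 9 of 10 members matched.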

Additional observations from a re-analysis of the deposited data

Results flagged for a closer look

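Single libraries that stood far from the others of their group (by Dixon's test, in groups of 4 or 5) were found in 9 of 51 groups of member values, where chance gives about 1 in 20 groups. Of these, 4 were WT lung replicate 1. It held 7.08 CPM of Mcpt8 against 0 to 0.627 CPM in the other 4 WT lung libraries, 5.24 CPM of Fcer1a against 0 to 0.162 CPM, 1.42 CPM of Ms4a2 against 0 to 0.207 CPM, and 172 CPM of Hdc against 18.7 to 39.7 CPM. In WT monocyte replicate 3, Epx was at 2.67 CPM against 0 to 0.187 CPM and Prg2 at 18.6 CPM against 1.31 to 4.10 CPM. In ACKR2-/- monocyte replicate 1, Epx was at 1.83 CPM against 0 to 0.266 CPM. In WT SPMs, Mcpt8 was at 2.73 CPM in replicate 3 against 0 to 0.192 CPM, and Hdc was at 2.30 CPM in replicate 1 against 8.47 to 9.41 CPM. The flags of one library are not independent of each other, since the genes involved vary together.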

How the results depend on the processing

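Over 48 gene results and 723 alternatives, 667 kept their direction and their side of the threshold, 25 lost a call, 7 gained one and 24 turned direction, and of the 309 alternatives that kept all planned libraries or left out WT lung replicates 3 and 5 together, 293 kept both. These counts include calling on the adjusted p alone, which reuses the main fit and so could not turn a direction. The count of members called for genotype in monocytes went from 0 to 1, always Cpa3, with DESeq2 (adjusted p = 0.0061), without the filter on low counts (edgeR adjusted p = 0.0232), with the replicate number as a block (edgeR adjusted p = 0.0264) and, over the leave-one-out fits (0 to 1), without ACKR2-/- replicate 2. Correlations of same-numbered libraries ran from −0.13 to 0.37 in monocytes, −0.12 to −0.01 in SPMs and −0.10 to 0.69 in lung. Those of differently numbered libraries ran from −0.41 to 0.29, −0.098 to 0.099 and −0.70 to 0.76. These ranges overlapped in each cell type, and the numbers were not taken as pairs. With the block, the Cpa3 fold change in SPMs turned to 0.14 and that of Il5ra in lung to 0.70. Leaving out WT lung replicates 3 and 5 together, chosen after seeing the data, turned Hdc in lung to −0.063 and lost the Mcpt8 monocyte to lung call (edgeR adjusted p = 0.0740). DESeq2 turned Mcpt8 of SPMs against lung to 0.16 and lost Mcpt8 of monocytes against SPMs (adjusted p = 0.100), which RLE factors also lost (edgeR adjusted p = 0.0661). Siglecf of monocytes against lung lost its call with DESeq2, RLE factors, the 1 CPM filter, the block and WT lung replicates 3 and 5 left out (adjusted p from 0.0507 to 0.0837). Hdc of monocytes against lung gained one without the filter (edgeR adjusted p = 0.0483).

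Leaving out 1 library at a time, log2 fold changes whose direction turned ranged from −1.25 to 1.88 for Prg2 in monocytes. In SPMs they ranged from −0.58 to 0.37 for Cpa3, −0.31 to 0.53 for Fcer1a, −0.17 to 0.41 for Siglecf, −0.65 to 0.0041 for Ear2 and −0.055 to 0.34 for Il5ra. In lung they ranged from −1.45 to 0.34 for Cpa3, −0.041 to 0.56 for Siglecf and −1.03 to 0.23 for Il5ra. Between WT populations they ranged from −0.44 to 4.38 for Fcer1a (monocytes against lung), and from −2.56 to 2.15 for Mcpt8 and −1.85 to 2.35 for Prg2 (SPMs against lung), where the Prg2 values carry no direction because they rest on 1 read and 2 reads in all. The cause of these changes was not tested. Over all genes, DESeq2 called 540, 30 and 18 genes for genotype in monocytes, SPMs and lung, against 168, 6 and 0 with edgeR. Without the filter edgeR called 346 and 52 in monocytes and SPMs. For the genotype differences between cell types, DESeq2 called 135, 113 and 23 genes against 45, 27 and 7, and for monocytes minus lung edgeR called 42 without the filter and 17 with the block. Members under the 3-read limit (Epx and Prg2 in macrophages, Il5ra in monocytes) are limited by depth.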
